A study of Rattus norvegicus with 8 samples.

Results

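The genes described here are 10 members of families of protease inhibitors, some secreted and some kept in the cytosol, as measured in a rat dental epithelial cell line. All genes called inhibitors here are so named by family, and 1 of the 10, Serpinb5, does not itself inhibit proteases. They were chosen by name, with earlier results of these data known. They are the rows of the deposited expression table whose gene symbol was Slpi, Wfdc18, Cst3, Cst6, Cstb, Serpine2, Serpinb5, Spint1, Spint2 or Timp1. Each symbol matched a single row, so they are 10 of the 30240 genes in the table. The cells were SF2, a line of dental epithelium that originated in the cervical loop, the growing end of the rat lower incisor. The study compared SF2 cells that overexpressed AmeloD, an enamel-epithelium DNA-binding protein of the basic helix-loop-helix class, with Control SF2 cells. Each genotype carried the plasmid label pCMV6.ODAM or pCMV6, and within each plasmid the label TGF or N. ODAM is the odontogenic ameloblast-associated protein, and neither the isoform and dose behind TGF nor the meaning of N was spelled out. There were 8 libraries, 1 for each of the 8 combinations, so no combination had a replicate. Whether the AmeloD line was a clone or a pool was not given in the sources used here.

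Proteases cut other proteins, and tissues hold them in check with families of dedicated inhibitors. Proteins with whey acidic protein (WAP) domains, such as Slpi, and Kunitz-domain proteins, such as Spint1 and Spint2, block serine proteases at or outside the cell surface. Serpins trap serine proteases by a large change of their own shape, and their clade B members lie mostly inside the cell. Cystatins occupy the active site of papain-like cysteine proteases such as the cathepsins, and tissue inhibitors of metalloproteases (TIMPs) block the enzymes that degrade extracellular matrix. In enamel, secreted matrix proteins are cleaved and removed by a metalloprotease and a kallikrein as the mineral grows, and in stratified epithelia a balance of kallikreins, matriptase and their inhibitors controls barrier formation and shedding.

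RNA abundance was given as CPM, the reads of a gene scaled to a fixed library size. Library totals were inferred by taking the smallest nonzero CPM of each library as 1 read, and read counts rest on that. The totals were 10568146 to 13668736 reads for AmeloD and 14766931 to 17775226 reads for Control, of which 15.6% to 17.5% lay in the table. Depth therefore moved with genotype, and its part in the results was not tested. Differences are given on the log2(CPM + 1) scale, which understates the change of genes at low CPM. They were tested with limma, a linear model fitted to the 6849 genes that reached 1 CPM in 4 or more libraries, with genotype, plasmid and TGF as additive terms. A gene was called at a Benjamini-Hochberg adjusted p under 0.05, and each difference is given with its standard error (SE). The spread came from 4 residual degrees of freedom per gene across the combinations (3 in the fits with an interaction), which limma pooled with a spread estimated over all genes. It covers differences between these libraries and not between separate cultures of 1 combination. All 10 inhibitors were tested. Of these, 8 reached 1 CPM in every library, Spint1 did so in 4 AmeloD and 3 Control libraries, and Timp1 in 2 AmeloD and 4 Control libraries.

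The epithelial label could be checked on 5 markers. Krt5, Krt17, Cdh1, Epcam and Tp63 together summed to 734 to 842 CPM in AmeloD libraries and 500 to 643 CPM in Control libraries, and 4 of the 5, all but Tp63, were called higher in AmeloD; Krt14 was not analysed here. In bulk RNA a different share of a cell type and a different amount of RNA per cell cannot be told apart, and the part of these markers in the genotype results was not tested. Of the 6 mesenchymal markers Col1a2, Lum and Pdgfrb were at 0 throughout, and the list summed to at most 0.805 CPM in AmeloD and 1.36 CPM in Control. The 4 odontoblast and bone markers (Bglap, Col2a1, Dmp1 and Dspp) were at 0 in all 8 libraries, and the 4 endothelial markers summed to at most 0.0924 CPM. The 6 leukocyte markers summed to 2.77 to 3.69 CPM in AmeloD and 0.814 to 1.75 CPM in Control, with Lyz2 at 0 and nearly all of the sum from Cd68, a lysosomal protein gene. The 1 leukocyte marker that was tested was called higher in AmeloD, by 0.949 on the log2 scale. Ascl5, the gene that encodes AmeloD, was at 0 in all 8 libraries, so the table gives no check of the genotype label. Odam had 3, 0, 1 and 0 reads in AmeloD cells with pCMV6.ODAM and TGF, pCMV6 and TGF, pCMV6.ODAM and N, and pCMV6 and N, against 17, 0, 10 and 1 reads in Control cells in the same order. Whether a transcript from either construct would be counted by this 3'-end assay was not given. The TGF label could be checked on Pmepa1, a gene well known to respond to transforming growth factor beta, which had 6.41 to 9.81 CPM in TGF libraries and 0 to 0.135 CPM in N libraries.

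The first question was how AmeloD overexpression related to the inhibitors. Slpi, Wfdc18, Spint1 and Spint2, which are the secreted or membrane-bound WAP and Kunitz inhibitors, were higher in AmeloD cells, and Serpine2, a secreted serpin, was lower. The 3 cystatins, Serpinb5 and Timp1 did not pass the test. That is 5 of 10 inhibitors called, against 13.8% of all tested genes, with 4 higher (9.07% of tested genes) and 1 lower (4.75%). The 10 were chosen with earlier results of these data known, so setting these shares side by side describes the list and tests nothing. The same holds for the other gene lists below. The median difference of the 10 was 0.11 on the log2 scale, against 0.05 over all tested genes. For Slpi, Spint1 and Serpine2 the ranges of the genotypes did not overlap, which was so for 15% of all tested genes.

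**Figure D1:**
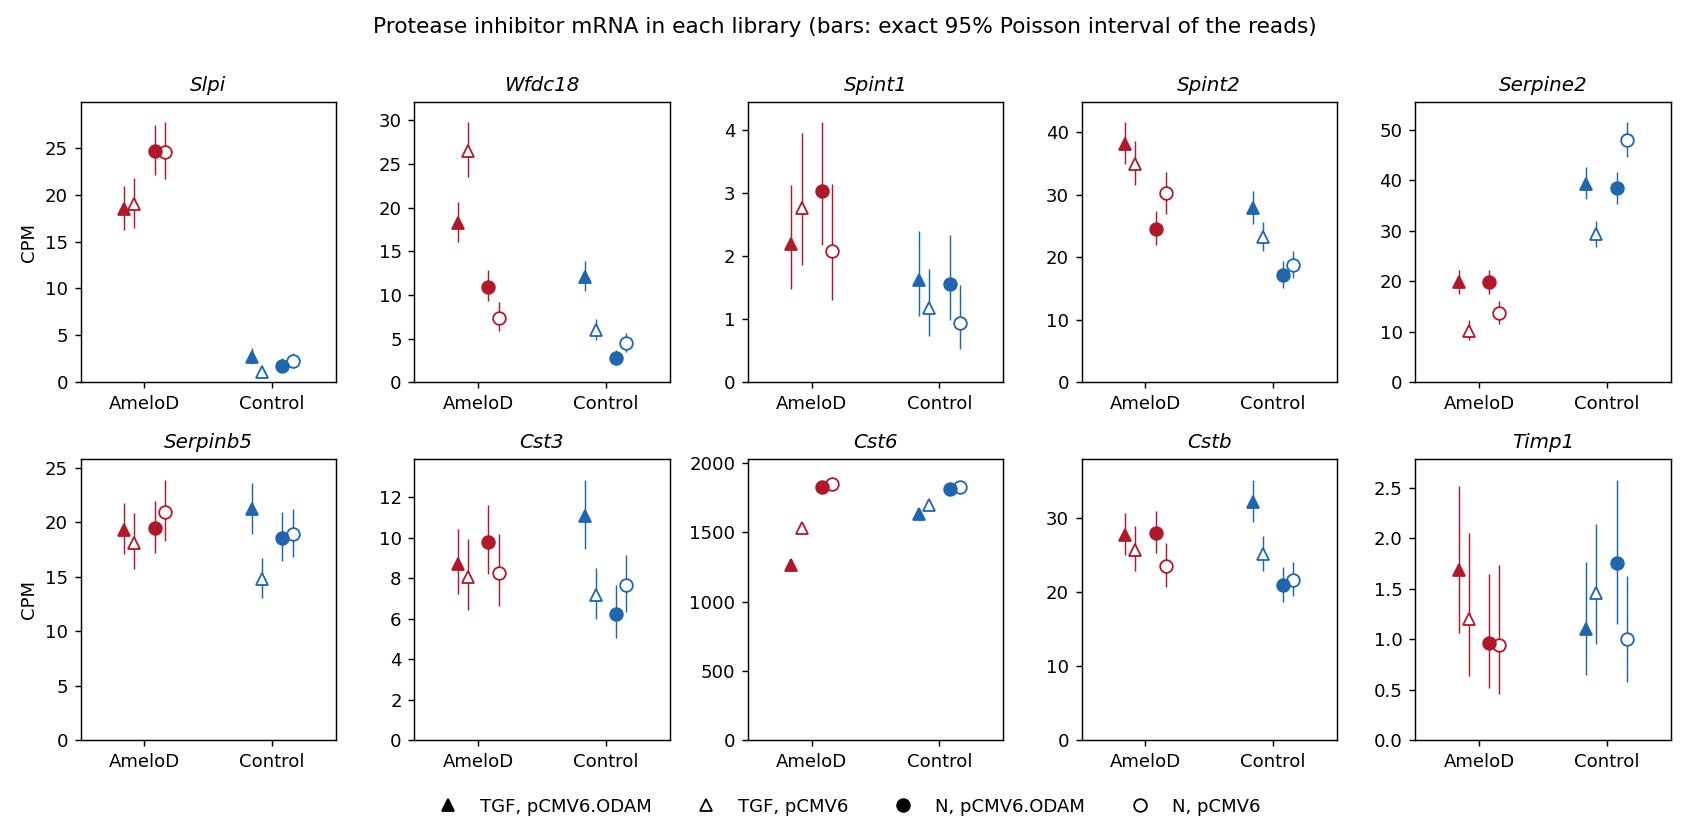
CPM of each of the 10 inhibitors in the 8 libraries, AmeloD at left and Control at right, with filled symbols for pCMV6.ODAM, open symbols for pCMV6, triangles for TGF and circles for N, and bars for the exact 95% Poisson interval of the reads. Slpi sits at 18.4 to 24.6 CPM in AmeloD and 1.07 to 2.66 CPM in Control, Serpine2 is lower in AmeloD, and the symbols of Serpinb5, Cst3, Cstb and Timp1 overlap between genotypes.

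Slpi encodes the secretory leukocyte protease inhibitor, a WAP protein of epithelial secretions that blocks neutrophil elastase and cathepsin G. The gene lies at chr3:153082369-153084453 on the minus strand in mRatBN7.2. In AmeloD cells it had 18.4 CPM (pCMV6.ODAM) and 18.9 CPM (pCMV6) with TGF, and 24.6 CPM (pCMV6.ODAM) and 24.5 CPM (pCMV6) with N. In Control cells it had 2.66 CPM (pCMV6.ODAM) and 1.07 CPM (pCMV6) with TGF, and 1.76 CPM (pCMV6.ODAM) and 2.25 CPM (pCMV6) with N. The lowest AmeloD library was well above the highest Control library, and the 4 matched differences ran only from 2.41 to 3.27 on the log2 scale. Slpi averaged 21.6 ± 3.40 CPM in AmeloD and 1.94 ± 0.686 CPM in Control (SD, n = 4 libraries each), a difference of 2.97 ± 0.17 (limma adjusted p = 1.4e-12). Counted as reads, 1048 in AmeloD against 122 in Control, the ratio after scaling to library totals was 11.3, with a 95% interval of 9.37 to 13.8 that covers counting error only. Of the enzymes that Slpi is known for, Elane, neutrophil elastase, had 0 reads in AmeloD libraries and 1 read in Control libraries. A count of 0 allows up to 3 reads, or 0.219 to 0.284 CPM in the AmeloD libraries.

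Wfdc18, known in rat as an extracellular peptidase inhibitor with a single WAP domain, lies at chr10:68588818-68589671 on the plus strand. In AmeloD cells it had 18.3 CPM (pCMV6.ODAM) and 26.5 CPM (pCMV6) with TGF, and 11 CPM (pCMV6.ODAM) and 7.38 CPM (pCMV6) with N. In Control cells it had 12.1 CPM (pCMV6.ODAM) and 5.96 CPM (pCMV6) with TGF, and 2.78 CPM (pCMV6.ODAM) and 4.51 CPM (pCMV6) with N. Every AmeloD library was above its matched Control library, but the ranges overlapped, since Control with pCMV6.ODAM and TGF was above both AmeloD libraries with N. The means were 15.8 ± 8.47 CPM in AmeloD and 6.33 ± 4.05 CPM in Control (SD, n = 4 libraries each), and the genotype difference was 1.20 ± 0.19 (limma adjusted p = 7.3e-05).

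Spint1 and Spint2 encode the hepatocyte growth factor activator inhibitors HAI-1 and HAI-2, membrane proteins with a pair of Kunitz domains that block matriptase, prostasin and related enzymes at epithelial surfaces. Spint2 lies at chr1:84558166-84580616 on the minus strand. In AmeloD cells it had 38.1 CPM (pCMV6.ODAM) and 34.9 CPM (pCMV6) with TGF, and 24.5 CPM (pCMV6.ODAM) and 30.2 CPM (pCMV6) with N, against 27.9 CPM (pCMV6.ODAM) and 23.2 CPM (pCMV6) with TGF and 17.1 CPM (pCMV6.ODAM) and 18.8 CPM (pCMV6) with N in Control cells. All 4 matched differences were positive, at 0.44 to 0.66, although the ranges overlapped by 1 library on each side. The genotype difference was 0.54 ± 0.12 (limma adjusted p = 0.0032). Spint1, at chr3:106231444-106244119 on the plus strand, was near the lower limit of the test, with 22 to 41 reads per AmeloD library and 15 to 25 per Control library. It had 2.08 to 3.04 CPM in AmeloD and 0.939 to 1.62 CPM in Control, ranges that did not overlap, and a difference of 0.60 ± 0.18 (limma adjusted p = 0.029). The Spint1 call was lost in 9 of 15 alternatives, among them DESeq2 on the recovered reads (adjusted p = 0.105) and 6 of the 8 limma fits that left out a library. Its adjusted p was 0.119 without AmeloD pCMV6 TGF, 0.106 without AmeloD pCMV6.ODAM N and 0.056 without AmeloD pCMV6 N, and 0.107 without Control pCMV6 N, 0.076 without Control pCMV6 TGF and 0.062 without Control pCMV6.ODAM N.

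Serpine2, protease nexin-1, is a secreted serpin that binds glycosaminoglycans and blocks thrombin and the plasminogen activators. It lies at chr9:81124804-81188826 on the minus strand. In AmeloD cells it had 19.8 CPM (pCMV6.ODAM) and 10.3 CPM (pCMV6) with TGF, and 19.8 CPM (pCMV6.ODAM) and 13.7 CPM (pCMV6) with N. In Control cells it had 39.3 CPM (pCMV6.ODAM) and 29.3 CPM (pCMV6) with TGF, and 38.4 CPM (pCMV6.ODAM) and 47.9 CPM (pCMV6) with N. Every AmeloD library was below every Control library. The means were 15.9 ± 4.73 CPM in AmeloD and 38.7 ± 7.62 CPM in Control (SD, n = 4 libraries each), and Serpine2 fell by 1.26 on the log2 scale (SE 0.15, limma adjusted p = 8.9e-07). The matched differences ran from -1.73 to -0.92.

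The genotype calls of Slpi, Wfdc18, Spint2 and Serpine2 held in all 16 alternatives tried. Their highest adjusted p was 2.8e-09 for Slpi, 0.0013 for Wfdc18, 0.03 for Spint2 and 4.8e-05 for Serpine2. In the models with an interaction term the genotype difference of Slpi was 2.84 ± 0.24 with TGF and 3.09 ± 0.24 with N, and that of Serpine2 was -1.19 ± 0.21 with TGF and -1.33 ± 0.21 with N. For Wfdc18 it was 1.27 ± 0.26 with TGF and 1.14 ± 0.26 with N. For each of these genes the differences with TGF and with N lay within their errors of each other. By plasmid the genotype difference of Serpine2 was -1.58 ± 0.19 with pCMV6 and -0.94 ± 0.19 with pCMV6.ODAM, which was not so even. Limma did not call that interaction (adjusted p = 0.999).

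**Figure D2:**
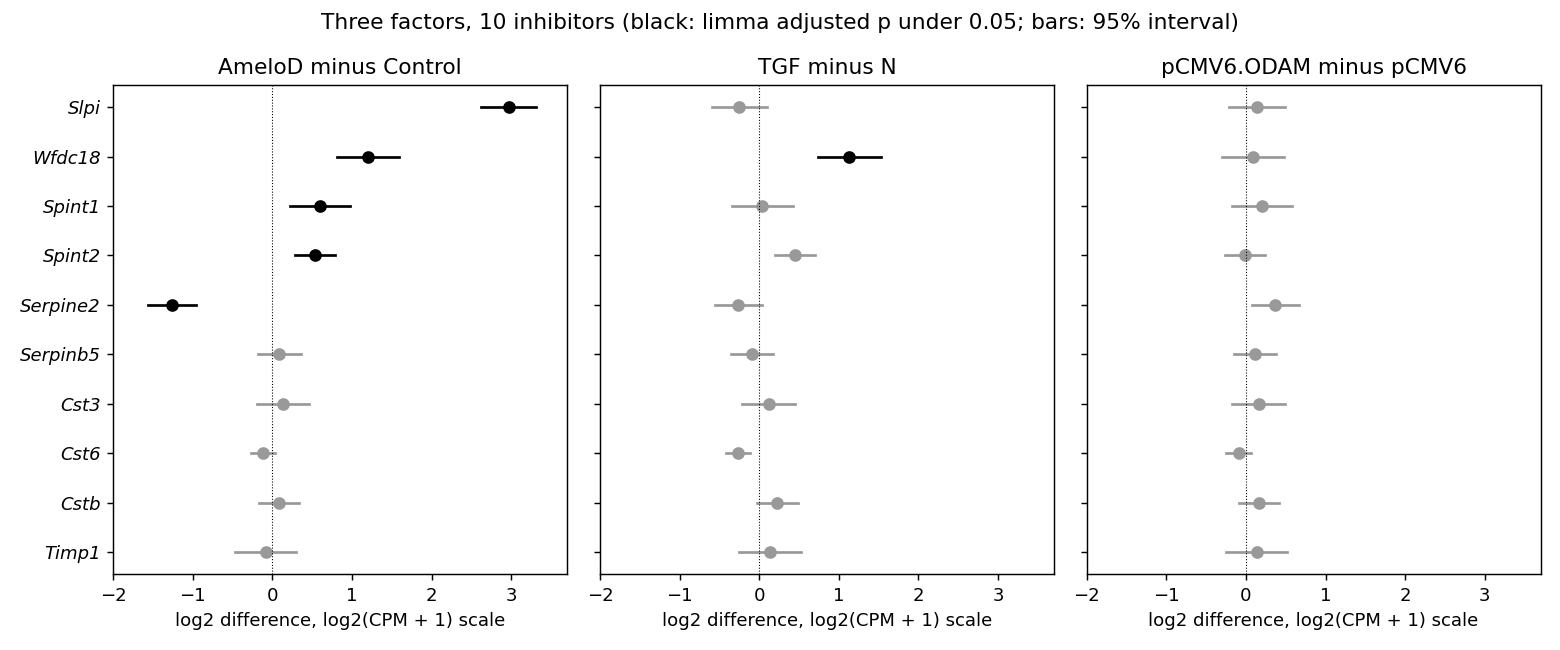
Differences of the 10 inhibitors for AmeloD minus Control, TGF minus N and pCMV6.ODAM minus pCMV6 on the log2(CPM + 1) scale, with points for the limma estimate over 8 libraries and bars for its 95% interval. Points in black passed an adjusted p of 0.05, which was so for 5 genes by genotype, for Wfdc18 by TGF and for none by plasmid.

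The start regions of the called genes are shown because basic helix-loop-helix factors bind E-boxes, sites that read CANNTG on both strands. The regions run from 250 bases before to 50 bases after the annotated start in RefSeq, build GRCr8, and 8 of the 10 inhibitors matched an entry. Slpi and Cst6 did not. The 4 called genes with an entry are written below 5' to 3' along the gene, with each CANNTG in capitals. They lie at chr3:126685031-126685330 on the plus strand for Spint1, chr1:93708042-93708341 on the minus strand for Spint2, chr10:69086069-69086368 on the plus strand for Wfdc18 and chr9:88637153-88637452 on the minus strand for Serpine2.
Spint1 promoter: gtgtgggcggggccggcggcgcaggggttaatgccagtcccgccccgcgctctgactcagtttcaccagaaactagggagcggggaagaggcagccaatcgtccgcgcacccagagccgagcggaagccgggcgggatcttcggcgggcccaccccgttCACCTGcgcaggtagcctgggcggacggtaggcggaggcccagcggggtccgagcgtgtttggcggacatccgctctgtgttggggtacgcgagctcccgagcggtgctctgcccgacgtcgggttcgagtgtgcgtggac
Spint2 promoter: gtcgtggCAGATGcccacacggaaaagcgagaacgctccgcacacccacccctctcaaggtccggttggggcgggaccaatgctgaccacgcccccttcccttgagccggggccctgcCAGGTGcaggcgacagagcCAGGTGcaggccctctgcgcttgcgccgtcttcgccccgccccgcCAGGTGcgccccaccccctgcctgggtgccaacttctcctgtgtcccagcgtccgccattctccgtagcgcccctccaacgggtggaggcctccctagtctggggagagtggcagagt
Wfdc18 promoter: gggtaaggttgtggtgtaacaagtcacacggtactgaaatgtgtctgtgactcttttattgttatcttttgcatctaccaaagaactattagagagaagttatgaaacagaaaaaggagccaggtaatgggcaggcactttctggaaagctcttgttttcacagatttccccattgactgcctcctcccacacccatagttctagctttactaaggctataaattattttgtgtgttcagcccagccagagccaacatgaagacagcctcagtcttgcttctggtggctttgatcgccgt
Serpine2 promoter: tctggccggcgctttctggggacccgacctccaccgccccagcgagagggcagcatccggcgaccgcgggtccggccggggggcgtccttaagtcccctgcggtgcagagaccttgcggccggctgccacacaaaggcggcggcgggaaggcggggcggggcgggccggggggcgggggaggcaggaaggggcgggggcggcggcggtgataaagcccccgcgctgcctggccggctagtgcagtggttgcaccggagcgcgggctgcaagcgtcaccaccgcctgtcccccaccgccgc

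Spint2 held 4 such sites and Spint1 held 1, and none was found in the window of Wfdc18 or of Serpine2. Of the 8 inhibitors with an entry 5 held at least 1 CANNTG, against 72.1% of all 33469 promoters in the table, whose median was 1 site. CAGCTG, a form of CANNTG and therefore also within that count, was in 0 of the 8 windows and in 15.1% of all promoters. These matches describe letters and not bound sites, and no binding was measured.

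The cystatins were close to even between the genotypes. Cst6, cystatin E/M, is a secreted inhibitor of cathepsin L and legumain in stratified epithelium, and lies at chr1:202655322-202657030 on the minus strand. It held 1.02% of all reads in the table, with 0.737% to 1.18% per library. In AmeloD cells it had 1266 CPM (pCMV6.ODAM) and 1532 CPM (pCMV6) with TGF, and 1828 CPM (pCMV6.ODAM) and 1852 CPM (pCMV6) with N, against 1630 CPM (pCMV6.ODAM) and 1696 CPM (pCMV6) with TGF and 1814 CPM (pCMV6.ODAM) and 1830 CPM (pCMV6) with N in Control cells. With N the genotypes lay almost on top of each other, and with TGF the AmeloD libraries were the lower ones. The genotype difference was -0.12 ± 0.07, with a 95% interval of -0.27 to 0.03 (limma adjusted p = 0.318).

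Cst3, cystatin C, is the main secreted cystatin of body fluids and lies at chr3:136336920-136340822 on the minus strand. It had 8.04 to 9.79 CPM in AmeloD and 6.23 to 11 CPM in Control. Cstb, stefin B, is a cytosolic inhibitor of cathepsins at chr20:10245462-10247526 on the minus strand, and had 23.5 to 28.0 CPM in AmeloD and 20.9 to 32.1 CPM in Control. For both genes the AmeloD range lay inside the Control range. The 95% intervals of the genotype difference were -0.20 to 0.46 for Cst3 and -0.17 to 0.34 for Cstb. For both, the highest library was Control with pCMV6.ODAM and TGF.

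Serpinb5, maspin, is a clade B serpin of epithelial cells that does not itself inhibit proteases, at chr13:22985557-23005756 on the plus strand. It had 18.1 to 20.9 CPM in AmeloD and 14.8 to 21.2 CPM in Control, with a 95% interval of the difference of -0.18 to 0.35. Timp1, an inhibitor of matrix metalloproteases, lies at chrX:1212972-1217664 on the minus strand. It had 10 to 23 reads per AmeloD library and 16 to 26 per Control library, that is 0.946 to 1.68 CPM in AmeloD and 1.0 to 1.76 CPM in Control. The 95% interval of its difference in limma was -0.47 to 0.30. Timp1 had 59 reads over all AmeloD libraries and 85 over all Control libraries.

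The second question was how TGF related to the same genes. Wfdc18 was the 1 inhibitor of the 10 called higher with TGF and 0 were called lower, against 1.81% of all tested genes called, 1.53% higher and 0.277% lower. Wfdc18 averaged 15.7 ± 8.79 CPM with TGF and 6.41 ± 3.59 CPM with N (SD, n = 4 libraries each), and every TGF library was above its matched N library, by 0.34 to 1.79. The difference was 1.13 ± 0.19 (limma adjusted p = 0.00078), and it was called in all 16 alternatives. In AmeloD cells it was 1.20 ± 0.26 (limma adjusted p = 0.0096) and in Control cells 1.07 ± 0.26 (limma adjusted p = 0.050, just above the threshold). The test of the difference between these gave 0.14 ± 0.37. Both are averages over uneven pairs. The smallest and the largest matched difference, 0.34 with pCMV6 and 1.79 with pCMV6.ODAM, were both in Control cells.

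Spint2 and Cst6 had differences of a single sign in all 4 matched pairs but did not pass the test. Spint2 had 23.2 to 38.1 CPM with TGF and 17.1 to 30.2 CPM with N, a difference of 0.45 ± 0.12 (limma adjusted p = 0.063). With the filter raised to 5 CPM, which changes both the genes adjusted over and the pooled spread, its adjusted p in limma was 0.046. The part of each was not tested. Over all 16 alternatives the adjusted p of Spint2 was at most 0.307. Cst6 had 1266 to 1696 CPM with TGF and 1814 to 1852 CPM with N, ranges that did not overlap, as was so for 4.26% of all tested genes. Its difference was -0.27 ± 0.07 (limma adjusted p = 0.072), and its 2 lowest libraries were the AmeloD libraries with TGF. The TGF difference of Cst6 was -0.40 ± 0.11 in AmeloD and -0.13 ± 0.11 in Control, and the difference between them was -0.27 ± 0.16 (limma adjusted p = 0.999). Slpi, which stood furthest apart by genotype, had 1.07 to 18.9 CPM with TGF and 1.76 to 24.6 CPM with N, and a TGF difference of -0.25 ± 0.17 (limma adjusted p = 0.625).

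The plasmid label and the interactions gave no called inhibitor. For pCMV6.ODAM against pCMV6, limma called 0 of 10 inhibitors and 0% of all tested genes; 1 inhibitor and 454 tested genes had an unadjusted p under 0.05, and on the recovered reads edgeR and DESeq2 called 0 of the inhibitors. That 1 was Serpine2, at 0.37 ± 0.15 (limma adjusted p = 0.71). Its plasmid difference was 0.69 ± 0.19 in AmeloD cells and 0.05 ± 0.19 in Control cells, and the difference of 0.64 ± 0.27 had an unadjusted p of 0.024 in limma and an adjusted p of 0.999. Limma called 0 of 10 inhibitors for genotype by TGF, where 0.0146% of all tested genes were called, and 0 inhibitors and 282 of all tested genes had an unadjusted p under 0.05. For genotype by plasmid it again called 0 of 10, with 0% of all tested genes called, and 1 inhibitor, Serpine2, and 308 of all tested genes had an unadjusted p under 0.05. The edgeR and DESeq2 fits also called 0 inhibitors in both interactions.

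The other inhibitors of the same families put these genes in context. The table held 99 of them, 48 with a read and 17 tested. By genotype 6 were higher in AmeloD, 1 was lower and 10 did not pass, with a median difference of 0.35 against 0.05 over all tested genes. Over all tested genes 9.07% were called higher and 4.75% lower, which is also the background to the family counts. Serpinb3a, whose human counterpart is a squamous cell antigen that inhibits cysteine proteases, was among the 4 with the largest change, at 14.2 to 27.6 CPM in AmeloD and 5.01 to 8.53 CPM in Control (difference 1.52 ± 0.19). The epithelial serpin Serpinb12 (1.21 ± 0.19) and the metalloprotease inhibitor Timp2 (1.21 ± 0.15) were also higher without overlap between genotypes. Timp2 had 18.8 to 22.7 CPM in AmeloD and 6.16 to 12.2 CPM in Control, while Timp1 of the same family did not pass and Timp3 had 0 reads in all 8 libraries. Spink5, a Kazal inhibitor that restrains kallikreins in skin, was called at 0.86 ± 0.28 (limma adjusted p = 0.044), but the call was lost in 13 of 16 alternatives, among them 5 of the 8 fits without a library. These left out either N library of either genotype or Control pCMV6 TGF, and gave adjusted p-values of 0.087 to 0.349 in limma. The difference itself was 0.42 without Control pCMV6.ODAM N, 1.29 without AmeloD pCMV6.ODAM TGF and 1.46 without Control pCMV6.ODAM TGF.

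Spink5 varied widely among libraries, and its ranges overlapped. It had 67.3 to 218 CPM in AmeloD and 33.0 to 155 CPM in Control, where the highest AmeloD library was pCMV6.ODAM with N and the highest Control library was pCMV6.ODAM with TGF. The TGF difference in AmeloD minus that in Control was -1.69 ± 0.40, with an unadjusted p of 0.00019 in limma that did not survive adjustment (adjusted p = 0.658). By TGF 1 of the 17 other inhibitors was called, against 1.81% of all tested genes. It was the Kunitz-domain gene Aplp2, at 9.66 to 12.7 CPM with TGF and 4.88 to 8.71 CPM with N (0.73 ± 0.16). Without AmeloD pCMV6.ODAM N, Control pCMV6.ODAM N or Control pCMV6.ODAM TGF the adjusted p of Aplp2 in limma was 0.086, 0.093 or 0.1.

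**Figure D3:**
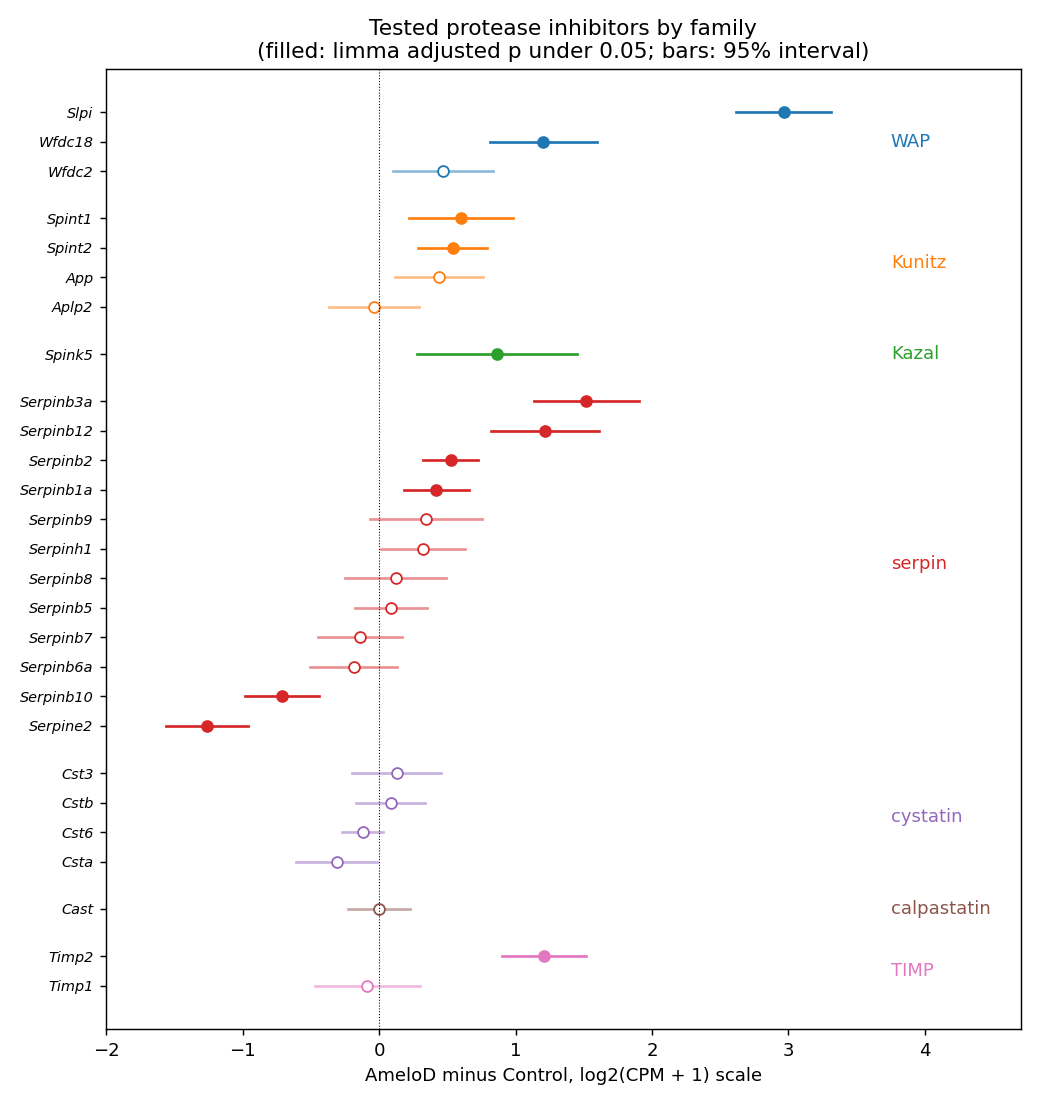
AmeloD minus Control difference of the 27 tested protease inhibitors on the log2(CPM + 1) scale, by family, with bars for the 95% interval and filled points for genes past a limma adjusted p of 0.05. WAP and Kunitz points lie mostly to the right of 0, the serpins spread from Serpine2 at -1.26 to Serpinb3a at 1.52, and none of the 4 cystatins is filled.

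Grouped by family with the 10 genes included, 2 of the 3 tested WAP genes and 2 of the 4 tested Kunitz genes were higher in AmeloD and none was lower. The 12 tested serpins were divided, with 4 higher, 2 lower and 6 not passing. None of the 4 tested cystatins passed in limma, 1 having an unadjusted p under 0.05. Serpinb5 lies at 1 end of a run of 10 clade B serpin genes over 665 kb of chromosome 13 in mRatBN7.2, and its neighbours were looked at after their values had been seen. Of the 7 tested there, Serpinb12, Serpinb3a and Serpinb2 were higher, Serpinb10 was lower, and Serpinb5, Serpinb7 and Serpinb8 did not pass. Serpinb2, plasminogen activator inhibitor 2, and Serpinb10 are adjacent genes on the same strand and were called in opposite directions, at 0.53 ± 0.10 and -0.71 ± 0.13. Serpinb3a has close copies, and Serpinb3 overlaps Serpinb11 on the opposite strand. Since neither the strand setting nor the treatment of shared reads was given, values of these genes are uncertain.

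**Figure D4:**
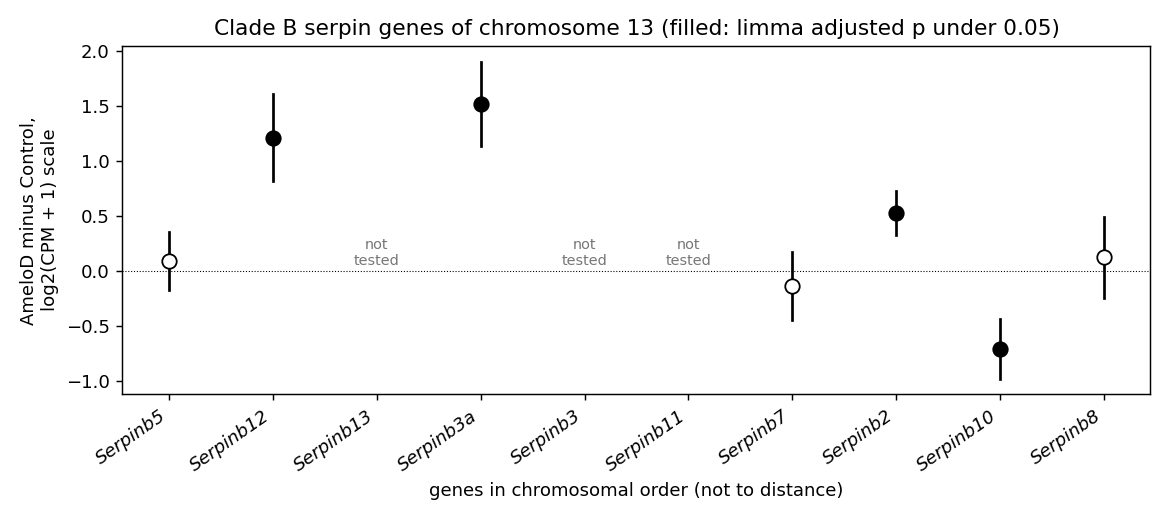
AmeloD minus Control difference on the log2(CPM + 1) scale for the 10 clade B serpin genes of chromosome 13 in their order along it, with bars for the 95% interval, filled points for genes past a limma adjusted p of 0.05 and no point for the 3 genes not tested. Serpinb12, Serpinb3a and Serpinb2 lie above 0, Serpinb10 lies below 0, and Serpinb5 at the left end lies near 0.

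Genes listed by protease family were also measured, and a listed gene is not necessarily a target of these inhibitors. Of 107 listed serine protease genes, 15 were tested, and 8 were higher in AmeloD and 0 lower, against 9.07% and 4.75% of all tested genes. Their median difference was 0.61, against 0.05 over all tested genes. Of these, Klk14 reached 1 CPM in AmeloD libraries alone and so entered the test through the genotype in which it was high. Without it 7 of 14 were higher. The 4 with the largest change on the log2(CPM + 1) scale were Tmprss11f, a transmembrane protease of the airway trypsin-like family (1.33 ± 0.19), and the kallikreins Klk10 (1.13 ± 0.13), Klk12 (1.11 ± 0.18) and Klk14 (0.90 ± 0.19). That ranking depended on the scale. In edgeR on the recovered reads Tmprss11f was at 2.14, Klk14 at 1.72, Klk12 at 1.19 and Klk10 at 1.14. St14 and Prss8, described next, were at 1.47 and 1.27 in edgeR. The enzymes blocked by Spint1 and Spint2 were low but called, and are among the 7 of 14 above. Each reached 1 CPM in every AmeloD library but not in every Control library, and the AmeloD libraries alone were enough to meet the filter. The 7 of 14 is therefore not free of genes that could enter through the genotype in which they were high. St14, matriptase, had 1.04 to 3.37 CPM in AmeloD and 0.406 to 1.06 CPM in Control (0.81 ± 0.21, limma adjusted p = 0.011), and Prss8, prostasin, had 1.29 to 3.22 CPM in AmeloD and 0.394 to 1.17 CPM in Control (0.74 ± 0.22, limma adjusted p = 0.022). The St14 call was lost in 3 of 15 alternatives, which included leaving out AmeloD pCMV6.ODAM TGF (limma adjusted p = 0.087) or Control pCMV6 TGF (0.082). The Prss8 call was lost in 5 of 15, which included leaving out AmeloD pCMV6 N (limma adjusted p = 0.137), AmeloD pCMV6.ODAM TGF (0.135), Control pCMV6 TGF (0.123) or Control pCMV6.ODAM N (0.09).

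The plasminogen activators faced by Serpine2 did not reach the filter. Plau, urokinase, had 0.964 to 3.05 CPM in AmeloD and 0.394 to 0.780 CPM in Control, so the ranges did not overlap, but it was not tested. Plat, the tissue-type activator, had at most 4 reads in any library. Among 35 genes of cathepsins, calpains and legumain 11 were tested and 1, Capn5, was called higher in AmeloD (0.58 ± 0.19), a share near the 9.07% of all tested genes. The Capn5 call was lost in 11 of 15 alternatives. Those included every fit without a library except AmeloD pCMV6 N and AmeloD pCMV6.ODAM TGF, with limma adjusted p-values of 0.067 to 0.146. Ctsl, a target of Cst6, had 4.35 to 7.32 CPM in AmeloD and 2.78 to 5.51 CPM in Control (0.43 ± 0.16, limma adjusted p = 0.082), and Lgmn, the other, had 1.24 to 2.22 CPM in AmeloD and 0.609 to 2.47 CPM in Control. Of 77 genes of matrix metalloproteases and their ADAM and ADAMTS relatives 8 were tested, and Adam8 (0.86 ± 0.18) and Mmp28 (0.59 ± 0.15) were higher, against 9.07% of all tested genes. The adjusted p of Mmp28 in limma was 0.085 without AmeloD pCMV6.ODAM TGF and 0.055 without AmeloD pCMV6 N.

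With TGF, 2 of the 15 genes in the serine protease list were called, against 1.81% of all tested genes. Prss23 had 14 to 35 CPM with TGF and 4.94 to 7.57 CPM with N (1.76 ± 0.15). F3 is tissue factor, a cofactor of coagulation and not itself a protease, and had 1.17 to 3.0 CPM with TGF and 0.0677 to 0.445 CPM with N (1.14 ± 0.19). It reached 1 CPM in TGF libraries alone and so entered the test through the label with which it was high, and without it 1 of 14 was called. The calls of Ctsb (0.48 ± 0.12), cathepsin B, and Bmp1 (0.80 ± 0.20), a procollagen-cleaving metalloprotease, were lost in 10 of 16 and in 11 of 15 alternatives. Each was lost in 6 of the 8 fits without a library, at limma adjusted p-values of 0.057 to 0.202 for Ctsb, where all but Control pCMV6 N and Control pCMV6 TGF mattered, and of 0.076 to 0.215 for Bmp1, where all but Control pCMV6.ODAM N and Control pCMV6.ODAM TGF did. Wfdc18 was the 1 inhibitor among the 10 that passed both the genotype and the TGF test. How many of all tested genes passed both was not counted. Prss23 also passed both, with a genotype difference of 0.62 (limma adjusted p = 0.0056). That genotype call was lost without Control pCMV6 TGF (limma adjusted p = 0.058).

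**Figure D5:**
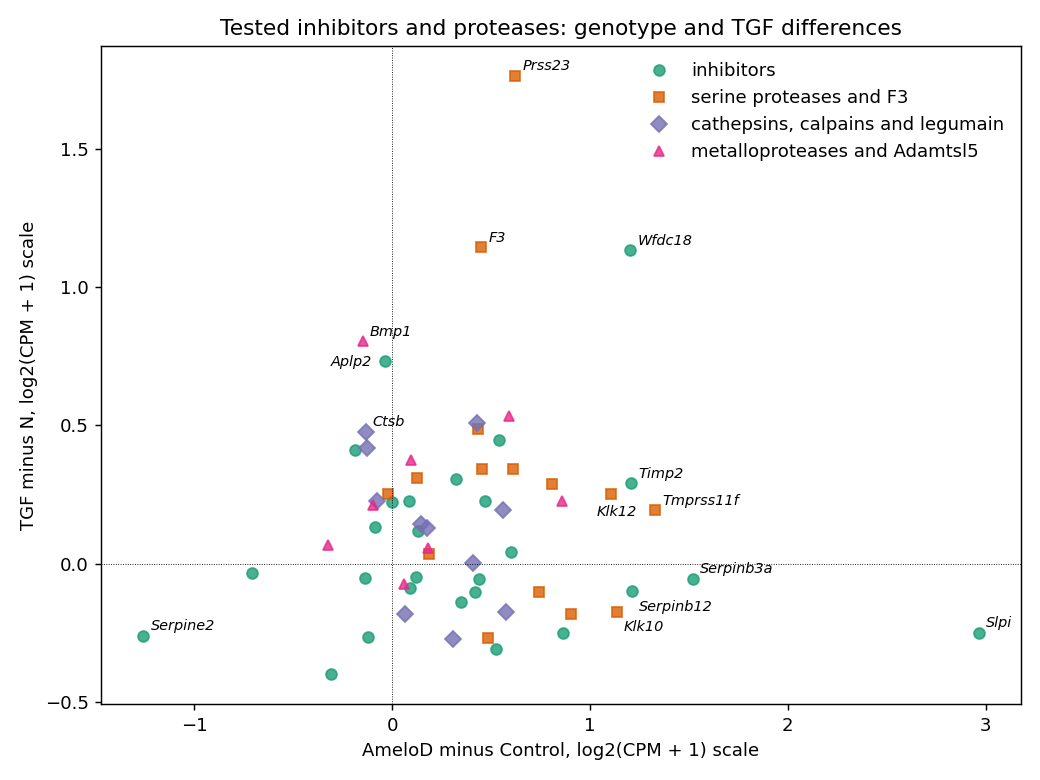
AmeloD minus Control difference (horizontal axis) against TGF minus N difference (vertical axis) on the log2(CPM + 1) scale for each tested inhibitor and protease, 1 point a gene, both from the same 8 libraries. Labelled genes passed the TGF test or differed by over 1 by genotype; Slpi and Serpine2 lie at the right and left ends near 0 for TGF, Prss23 at the top, and Wfdc18 is high on both axes.

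Genes with the profile most like each inhibitor were found by the root mean square difference of centred log2(CPM + 1) values over the 8 libraries. For Slpi they were Cnfn (0.31), Fhl1 (0.31) and Krtdap (0.34), against a root mean square of 1.5 for Slpi's own profile about its mean. For Wfdc18 they were Fas (0.39), Palldl1 (0.40) and Mxra8 (0.41), against 0.89. For Spint2 they were the serine protease Htra1 (0.09), Sparc (0.11) and Eps8l1 (0.11), against 0.37, and for Serpine2 they were Fam162a (0.24), Ccdc181 (0.28) and Sgo1 (0.28), against 0.70. A likeness over 8 libraries that share a strong genotype difference is a description of these libraries.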

How the data were processed

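RNA of 8 libraries of SF2 cells was analysed. Per the labels' protocols, libraries were made with the QIAseq UPX 3' Transcriptome kit, sequenced on a DNBSEQ-G400 and, after trimming, mapped by STAR to mRatBN7.2, with gene counts from featureCounts. The versions were STAR 2.7.10a and featureCounts 2.0.1, per the submitters' processing notes. The sources used here do not give the strand setting or the handling of shared reads and molecular identifiers. CPM per gene is the unit the authors deposited, and 100% of the values corresponded to a whole number of reads (tolerance 0.01). From the CPM, log2(CPM + 1) was tested with limma 3.58.1 (R 4.3.3, trended eBayes, two-sided, Benjamini-Hochberg over 6849 genes). Since no combination had a replicate, all 8 libraries shared 1 additive model. Alternatives were a pseudocount of 0.25, no filter, a 5 CPM filter, TMM scaling, a common median, edgeR 4.0.16 and DESeq2 1.42.0 on the recovered reads, matched pairs as a block, and leaving out each library.

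Named genes were the 10 inhibitors, up to 4 called genes per protease or inhibitor list by genotype and 3 by TGF, fixed partners, and the 3 genes with the closest profile; other genes were chosen after their values were seen. The members and lists were chosen with earlier results of these data known. The limma tests were tried on simulated counts with the same relative spread for every gene and no separate spread between cultures. The outcome is not given here and is not used as support for any result. The interval of the Slpi read ratio, the Poisson bars of the CPM values and the floors reflect counting error alone. Intervals of the limma differences rest on the spread between libraries, pooled with the spread estimated over all genes.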

Additional observations from a re-analysis of the deposited data

How the results depend on the processing

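With 1 library per combination, p-values rest on 4 residual degrees of freedom per gene (3 with an interaction) and mostly on the spread limma pools over genes (20.2 prior degrees of freedom for the additive fit), and cell culture and library cannot be told apart from the factors. Low counts limit Spint1 and Timp1. Of 315 alternative values for the 10 inhibitors by genotype and TGF, 294 kept direction and side of the threshold, 9 lost a call (all Spint1 by genotype), 1 gained one and 11 changed sign; none of those 11 had been called. When a library was left out, the genotype difference ran from -0.0035 (without Control pCMV6 TGF) to 0.19 for Serpinb5 and, each lowest or, for Timp1, highest without Control pCMV6.ODAM N, from -0.028 to 0.28 for Cst3, from -0.0093 to 0.17 for Cstb and from -0.22 to 0.042 for Timp1. The TGF difference ran from -0.055 (without AmeloD pCMV6 TGF; -0.025 without Control pCMV6 N) to 0.17 for Spint1, from -0.19 to 0.0016 (without Control pCMV6 TGF) for Serpinb5 and from -0.039 (without Control pCMV6.ODAM N; -0.036 without Control pCMV6.ODAM TGF) to 0.19 for Cst3. For Spint1 it was also -0.0065 with a common median and -0.0025 in edgeR. The causes were not tested.

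Inhibitors called by genotype numbered 4 to 5 throughout. By TGF 2 were called with the 5 CPM filter and 1 otherwise. Over all genes, 946 were called by genotype, 606 with the 5 CPM filter and 642 to 924 when a library was left out. By TGF 124 were called, 67 with no filter and 71 to 104 when a library was left out, lowest without AmeloD pCMV6.ODAM N and next, at 76, without Control pCMV6.ODAM N. For the plasmid 0 were called, 1 in DESeq2 and 0 to 2 when a library was left out. For genotype by TGF 1 was called, 0 with a pseudocount of 0.25, no filter, edgeR or DESeq2, and 0 to 7 when a library was left out; for genotype by plasmid 0, and 0 to 2. Scaling moved the split by direction. By genotype 65.6% of calls were higher as deposited, 52.9% with TMM, 49% with a common median, 54.2% in edgeR and 53.3% in DESeq2; by TGF 84.7% were higher as deposited and 70.8% in DESeq2. No paired analysis was possible by replicate number because each combination had 1 library; with matched pairs as a block the inhibitors called were unchanged in number, 5 by genotype, 1 by TGF and 0 by plasmid.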
